A study of Mus musculus with 12 samples.

Results

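The genes described here are 10 genes of the p53 pathway and of cellular senescence, chosen by name: Trp53, Mdm2, Cdkn1a, Cdkn1b, Cdkn2a, Cdkn2b, Ccng1, Gdf15, Bbc3 and Bax. All 10 were found among the 43346 genes of the deposited mouse table, and all 10 passed the filter on low counts that left 18965 genes for testing. RNA-seq was done on veins taken 7 days after surgery. The sham group (n = 6) gave jugular vein after a sham operation. The AVF-CKD group (n = 6) gave the venous limb of the AVF. The letters are not spelled out in the labels and are read here as arteriovenous fistula, a surgical join of an artery to a vein, and chronic kidney disease. The labels do not say whether the sham mice also had kidney disease, so it is not known here whether the groups differ in it. Vessel, surgery and any difference in kidney disease cannot be told apart in this design. The labels state no strain, sex or age, and they do not say that each library is 1 animal. The spread behind the p-values is therefore that among libraries and may be technical.

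p53, the product of Trp53, is a transcription factor that is held low by Mdm2, an E3 ubiquitin ligase that p53 itself induces. When DNA damage or other stress frees p53, it switches on genes that stop the cell cycle (Cdkn1a, which encodes p21, and Ccng1), a secreted stress cytokine (Gdf15) and killers of the mitochondrial route to apoptosis (Bax, and Bbc3, which encodes PUMA). Senescence, a lasting arrest of the cell cycle, is marked by the CDK inhibitors of the Cdkn2a and Cdkn2b locus and by p21, and p27, from Cdkn1b, is a CDK inhibitor of quiescent cells. In vessel walls p21 and p27 are known as brakes on smooth muscle growth.

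None of the 10 genes passed the test between fistula and sham veins. The background was 0% of the 18965 genes called at an adjusted p below 0.05 (edgeR quasi-likelihood test, Benjamini-Hochberg), and 0 of the 10 genes were called. At an unadjusted p below 0.05 the background was 9.34% of genes (1772) with edgeR, and again 0 of the 10 genes fell there. DESeq2 placed 2002 genes and limma voom 2124 genes below an unadjusted p of 0.05. The groups overlapped for all 10 genes, where 0.638% of all genes had groups that did not overlap. Log2 fold changes ran from -0.27 for Cdkn2b to 0.27 for Cdkn2a, 7 positive and 3 negative, with a median of 0.07 against -0.002 for all genes tested. In this fit the 95% interval excluded a 2-fold change in either direction for all 10 genes, and for 7 it excluded a 1.5-fold change. Of all genes, 86.7% and 65.3% had intervals inside these bounds. The bound was close for Cdkn2a, whose interval reached 1.91-fold. In a fit without the library sham 5 (log2 fold change 0.56 ± 0.26, SE) a 2-fold rise of Cdkn2a was not excluded.

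**Figure D1:**
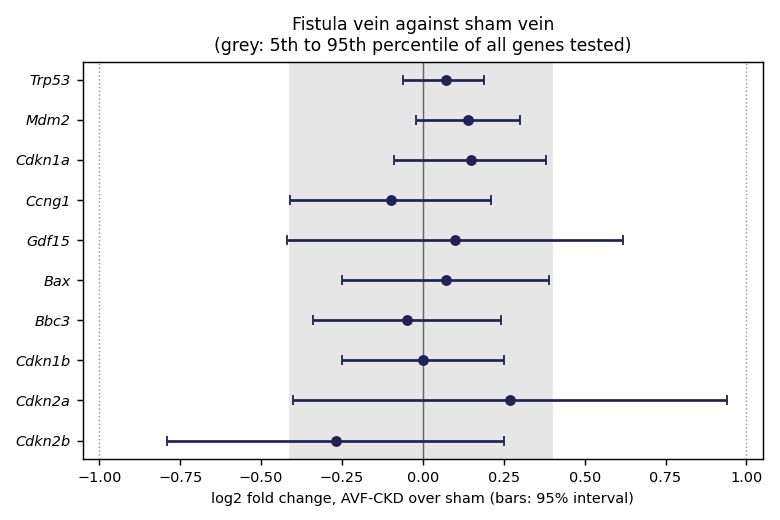
Log2 fold change of AVF-CKD over sham for each of the 10 genes (points) with its 95% interval from the edgeR fit (bars), over the range between the 5th and 95th percentiles of all 18965 genes (grey band, -0.41 to 0.40). Dotted lines mark a 2-fold change. Every interval crosses 0, the narrowest is that of Trp53 and the widest that of Cdkn2a.

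Libraries held 38653830 to 60142016 counts. Values below are CPM, counts scaled to a common library size with TMM. Markers of endothelium (984 to 1636 CPM in sum), smooth muscle (1178 to 2471 CPM) and fibroblasts (26807 to 46751 CPM) were present in all libraries. Skeletal muscle markers (438 to 11511 CPM), cardiac muscle markers (20.8 to 124 CPM), fat markers (757 to 4179 CPM) and macrophage markers (5205 to 10309 CPM) varied within both groups, and no marker was at 0 in all 12 libraries. Between the groups, 4 of 7 fat markers had an unadjusted edgeR p below 0.05 and were lower in AVF-CKD (757 to 1547 CPM in sum, against 941 to 4179 CPM in sham), as were 2 of 8 endothelial markers (984 to 1574 against 1175 to 1636 CPM) and 2 of 6 smooth muscle markers (1178 to 2278 against 1792 to 2471 CPM). Higher in AVF-CKD by the same measure were 2 of 5 nerve markers (38.0 to 55.8 against 30.7 to 42.4 CPM), 1 of 5 neutrophil markers tested and 1 of 3 cardiac muscle markers tested. Both of these lists hold 6 genes, and the rest did not pass the filter on low counts. The part of these markers in the values of the 10 genes was not tested beyond the fit with muscle and fat scores. Sham 6 held the most fat and gland RNA (4179 and 33.9 CPM in sum, against 941 to 2160 and 2.59 to 5.84 CPM in the other sham libraries). The clock output gene Dbp split the libraries: sham 4, 5 and 6 and AVF-CKD 6 had 6.15 to 21.4 CPM, and the remaining 8 had 77.7 to 107 CPM. In such bulk tissue fewer cells of a type and less RNA per cell cannot be told apart.

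The promoter windows show which of the genes hold an exact match to the p53 decamer, a part of the full p53 motif, next to their start. A p53 response element is built from a pair of decamers, and the p53 decamer, which reads the same on both strands, was searched in windows of 250 bases before to 50 bases after each RefSeq start (GRCm38.p6). The pattern was RRRCWWGYYY (R a purine, W A or T, Y a pyrimidine), with no mismatch allowed, so elements with a mismatch are missed. All 10 genes matched to RefSeq, with 15 windows. Of these windows 5 held the decamer, those of Trp53, Mdm2, Cdkn1a, Ccng1 and Bax, and 8.36% of all 32851 windows held it. The upstream window of Cdkn1a held 2 decamers at positions -73 and -51 from the annotated start, 12 bases apart, and 0.0731% of all windows held 2 decamers at most 13 bases apart. The window at the downstream start of Cdkn1a held no decamer. Stretches directly beside a marked decamer of Cdkn1a (tgacatgttc) and of Ccng1 (agacctgccc) missed the pattern at a single base and were not marked. The marked decamers are therefore not shown to be the pairs that form an element. The whole Cdkn1a window and 60 bases around the decamer of the other 4 genes are printed 5′ to 3′ with the decamers in capitals.
Cdkn1a, chr17:29090729-29091028, + strand: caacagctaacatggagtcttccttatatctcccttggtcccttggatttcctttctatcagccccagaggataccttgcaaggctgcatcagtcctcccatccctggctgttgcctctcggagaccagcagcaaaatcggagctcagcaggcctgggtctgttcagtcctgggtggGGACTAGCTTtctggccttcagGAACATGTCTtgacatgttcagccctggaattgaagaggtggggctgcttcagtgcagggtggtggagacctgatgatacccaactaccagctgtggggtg
Mdm2, chr10:117710910-117710969, - strand: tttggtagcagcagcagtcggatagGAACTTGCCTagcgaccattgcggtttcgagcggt
Ccng1, chr11:40755437-40755496, - strand: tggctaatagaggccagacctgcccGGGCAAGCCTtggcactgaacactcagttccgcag
Bax, chr7:45467065-45467124, - strand: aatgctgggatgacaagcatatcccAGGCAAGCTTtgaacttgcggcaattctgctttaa
Trp53, chr11:69580259-69580318, + strand: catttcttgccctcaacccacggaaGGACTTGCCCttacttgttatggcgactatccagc
The windows of Gdf15, Bbc3, Cdkn1b, Cdkn2a and Cdkn2b held no decamer, which says only that these letters are not there. A known pair of p53 elements of Mdm2 lies in its first intron, outside the window.

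Trp53 (ENSMUSG00000059552, chromosome 11, 69580359 to 69591873) was the steadiest of the 10 genes. It stood at 43.6, 48.2 and 50.5 CPM (lowest, median and highest of n = 6) in sham and at 47.6, 48.7 and 55.3 CPM in AVF-CKD. The medians nearly coincided, with sham 6 at the bottom and AVF-CKD 6 at the top. Means were 47.6 CPM ± 2.51 (SD, n = 6) and 49.8 CPM ± 2.90. The log2 fold change was 0.07 ± 0.06 (SE; edgeR adjusted p = 0.760), and the 95% interval of the fold change was 0.96 to 1.14. Its biological coefficient of variation of 9.45% stood at percentile 2.06 of the genes tested, whose median was 18.3%.

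Mdm2 (ENSMUSG00000020184, chromosome 10, 117688888 to 117710758), whose transcription p53 drives in a feedback loop, came closest to the threshold. It stood at 62.7, 68.8 and 79.0 CPM in sham and at 64.4, 77.4 and 82.0 CPM in AVF-CKD. Of the fistula libraries 5 of 6 lay above the sham median, and the library AVF-CKD 5 alone lay low. The means of 69.1 CPM ± 5.74 (SD, n = 6) and 76.1 CPM ± 6.17 differed by a log2 fold change estimated at 0.14 ± 0.07 (SE; edgeR adjusted p = 0.578). The 95% interval of the fold change was 0.987 to 1.23. Neutrophil markers summed to 122 CPM in AVF-CKD 5 and 120 CPM in sham 1, which had the lowest Mdm2 of their groups, and to 204 to 409 CPM in the other 10 libraries. The part of this in the Mdm2 values was not tested.

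Cdkn1a (ENSMUSG00000023067, chromosome 17, 29090979 to 29100722), the p21 gene and a main effector of p53 arrest, stood at 75.2, 88.4 and 110 CPM in sham and at 77.3, 98.1 and 121 CPM in AVF-CKD. Here too 5 of 6 fistula libraries lay above the sham median, with AVF-CKD 6 and sham 5 the highest of their groups. Means of 90.1 CPM ± 12 (SD, n = 6) and 99.7 CPM ± 14.2 differed by a log2 fold change estimated at 0.15 ± 0.11 (SE; edgeR adjusted p = 0.715), with a 95% interval of the fold change of 0.94 to 1.30. The 3 libraries with the most Cdkn1a, AVF-CKD 6, sham 5 and AVF-CKD 2 (121, 110 and 106 CPM), were those with the most cardiac muscle markers (107, 108 and 124 CPM in sum, against 20.8 to 60.1 CPM in the other 9). Over the 12 libraries Pearson's r between log2 Cdkn1a and that sum was 0.87 (Spearman 0.85), and 0.86 with group means removed. Cdkn1a also had an r of 0.69 with cycling cell markers, and it ranged from 89.5 to 121 CPM where Dbp was low (4 libraries) and from 75.2 to 106 CPM elsewhere (8 libraries). The part of these markers in the Cdkn1a values was not tested. With Dbp as a covariate the log2 fold change of Cdkn1a was 0.23 ± 0.08 (edgeR adjusted p = 0.36).

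Ccng1 (ENSMUSG00000020326, chromosome 11, 40748552 to 40755311), a cyclin-like p53 target, was at 141, 159 and 257 CPM in sham and at 139, 153 and 202 CPM in AVF-CKD. All but 2 libraries lay between 139 and 178 CPM. The exceptions were sham 4 and AVF-CKD 2, at 257 and 202 CPM, and skeletal muscle markers summed to 11511 and 10898 CPM there, against 438 to 4789 CPM in the other 10. Across the 12 libraries r with the log2 of this sum was 0.77 (Spearman 0.89). It was 0.85 without sham 3 and AVF-CKD 5, the 2 libraries farthest from the median of that log2 sum. The means were 173 CPM ± 42.4 (SD, n = 6) and 162 CPM ± 24.1, and the log2 fold change was -0.10 ± 0.15 (SE; edgeR adjusted p = 0.866). Without sham 4 it was 0.05 ± 0.10, of the other sign, and with muscle and fat scores as covariates it was -0.09 ± 0.12.

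Gdf15 (ENSMUSG00000038508, chromosome 8, 70629393 to 70632456), which encodes a cytokine released by stressed cells, was low, with 60 to 201 counts per library. It stood at 1.97, 2.95 and 3.85 CPM in sham and at 1.36, 3.06 and 3.93 CPM in AVF-CKD. The groups spanned much the same range, and AVF-CKD 5 was the lowest of all 12. The log2 fold change was 0.10 ± 0.24 (SE; edgeR adjusted p = 0.928), and the interval of the fold change, 0.746 to 1.54, was among the wider ones. Without AVF-CKD 5 it was 0.25, and without AVF-CKD 2 it was 0.01.

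The apoptosis genes Bax and Bbc3 had group means close to each other. Bax (ENSMUSG00000003873, chromosome 7, 45461695 to 45466898), the pore-forming executioner, stood at 53.7, 68.4 and 88.2 CPM in sham and at 53.6, 75.1 and 91.6 CPM in AVF-CKD. Its log2 fold change was 0.07 ± 0.15 (SE; edgeR adjusted p = 0.918) with a fold interval of 0.838 to 1.31. The 6 libraries with Bax at 71.7 CPM or more (sham 2 and 3 and AVF-CKD 1, 2, 3 and 4) were the 6 with macrophage sums of 8782 to 10309 CPM, and the other 6, with Bax at 71.0 CPM or less, had 5205 to 7576 CPM. Over the 12 libraries Pearson's r was 0.78 (Spearman 0.80), and 0.88 without the 2 libraries whose macrophage sums lay farthest from the median. Among 130 relations of a gene with a marker sum or Dbp, this was the only 1 with the same 6 highest libraries. The part of these markers in the Bax values was not tested. Bax also ranged from 53.7 to 65.8 CPM where Dbp was low (4 libraries) and from 53.6 to 91.6 CPM elsewhere (8 libraries). Bbc3 (ENSMUSG00000002083, chromosome 7, 16309616 to 16318205), a BH3-only activator of Bax, stood at 7.44, 8.86 and 10.4 CPM in sham and at 6.07, 8.88 and 10.7 CPM in AVF-CKD. Its medians were almost equal and its lowest value was that of AVF-CKD 2. The log2 fold change was -0.05 ± 0.14 (SE; edgeR adjusted p = 0.935), with a fold interval of 0.788 to 1.18.

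**Figure D2:**
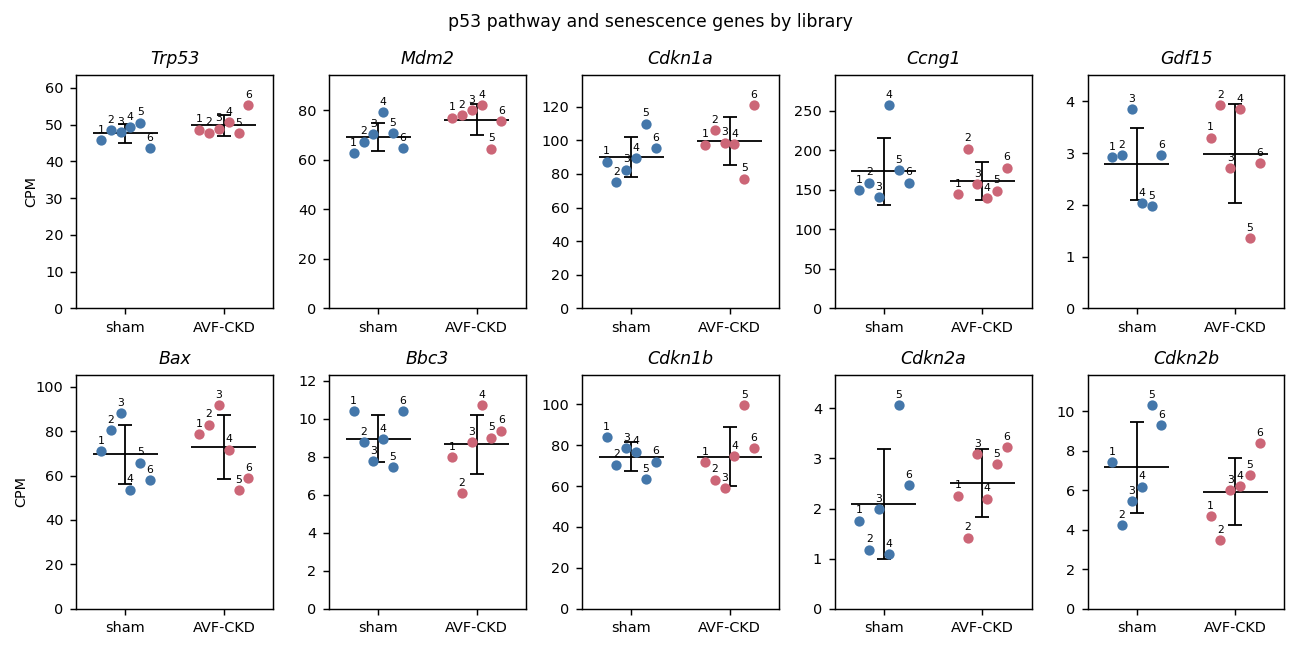
CPM of the 10 genes in each of the 12 libraries (points, numbered by title within sham and AVF-CKD), with the group mean (line) and SD (bar, n = 6). The groups overlap in every panel; sham 4 stands apart for Ccng1 at 257 CPM, AVF-CKD 5 for Mdm2 at 64.4 CPM.

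Among the CDK inhibitors outside the direct p53 targets, Cdkn1b (ENSMUSG00000003031, chromosome 6, 134920401 to 134925513), the p27 gene, had equal means, 74.3 CPM ± 7.15 (SD, n = 6) in sham and 74.4 CPM ± 14.3 in AVF-CKD. It stood at 63.6, 74.5 and 84.0 CPM in sham and at 59.0, 73.2 and 99.5 CPM in AVF-CKD. The fistula libraries enclosed the sham range on both sides, with AVF-CKD 5 at the top. The log2 fold change was 0.00 ± 0.12 (SE; edgeR adjusted p = 0.999) and the fold interval 0.843 to 1.19.

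The senescence locus on chromosome 4 was expressed at a low level. Cdkn2a (ENSMUSG00000044303, 89274471 to 89294653) encodes p16Ink4a and, from another first exon, p19Arf, which protects p53 by binding Mdm2; the counts do not separate them. It had 47 to 187 counts per library, at 1.09, 1.88 and 4.06 CPM in sham and 1.42, 2.57 and 3.22 CPM in AVF-CKD. Of the 6 fistula libraries 5 lay above the sham median, while the highest of all was sham 5. The log2 fold change was 0.27 ± 0.31 (SE; edgeR adjusted p = 0.825), and the fold interval reached from 0.757 to 1.91. The log2 fold change was 0.56 ± 0.26 without sham 5 and 0.14 ± 0.3 without sham 4. With Dbp as a covariate it was 0.49 ± 0.28, and without the 4 libraries of low Dbp 0.53 ± 0.28. At these SEs a 2-fold rise was not excluded without sham 5 or in either of the fits that dealt with Dbp. Cdkn2b (ENSMUSG00000073802, 89306289 to 89311032), which encodes p15Ink4b, an inhibitor of CDK4 and CDK6, lies beside it. Its values were 4.25, 6.81 and 10.3 CPM in sham and 3.49, 6.11 and 8.38 CPM in AVF-CKD. Only 1 of 6 fistula libraries lay above the sham median, and the libraries with low Dbp (6.19 to 10.3 CPM) lay mostly above the others (3.49 to 7.44 CPM). The log2 fold change was -0.27 ± 0.24 (SE; edgeR adjusted p = 0.760), with a fold interval of 0.579 to 1.19, and it was -0.09 ± 0.19 with Dbp as a covariate. Sham 5 and AVF-CKD 6 had the highest Cdkn2a and Cdkn2b of their groups, and they had the most cycling cell markers as well (350 and 289 CPM in sum, against 163 to 254 CPM in the other 10). Over the 12 libraries r with this sum was 0.55 for Cdkn2a and 0.28 for Cdkn2b (Spearman 0.50 and 0.14). Without the 2 libraries farthest out in the sum, r was 0.35 and 0.11. The part of cell cycling markers in these values was not tested.

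Per kilobase of the length in the deposited table, the 10 genes covered a wide range of levels. With that length Bax had the highest mean, 81.9 CPM per kilobase ± 15.3 (SD, n = 12), at percentile 96.6 of the genes tested, followed by Ccng1 (47.7 ± 9.52) and Cdkn1a (42.7 ± 6.09). Then came Cdkn1b (16.3 ± 2.36), Mdm2 (14.3 ± 1.33) and Trp53 (12 ± 0.699). Cdkn2b (4.70 ± 1.47) and Bbc3 (4.39 ± 0.677) stood lower, and Cdkn2a (1.96 ± 0.764) and Gdf15 (1.56 ± 0.432) lowest, at percentiles 31.6 and 28.0. The steps from Cdkn1a down to Cdkn1b and from Trp53 down to Cdkn2b had ranges that did not overlap. Mdm2 exceeded Trp53 within each of the 12 libraries, by a median of 1.18 times (1.08 to 1.31). The order was not the same in every library for Bax over Ccng1 (11 of 12 libraries), Cdkn1b over Mdm2 (10 of 12), Ccng1 over Cdkn1a (9 of 12), Cdkn2b over Bbc3 (6 of 12) and Cdkn2a over Gdf15 (6 of 12), and the ranges of these neighbours overlapped. The p21 gene Cdkn1a exceeded the p27 gene Cdkn1b in each of the 12 libraries, by a median of 2.70 times per kilobase (1.59 to 3.55). The places of Bax and Cdkn1a depend on the length used. With the exonic bases of GENCODE M21, Bax was at 45.2 ± 8.46 CPM per kilobase, below the mean of Ccng1 at 47.7, and Ccng1 was the higher in 6 of 12 libraries. Cdkn1a was then at 26.7 ± 3.81 CPM per kilobase, and it exceeded Cdkn1b in 11 of 12 libraries, by a median of 1.69 times (0.995 to 2.22), with ranges that overlapped.

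The 10 genes did not move as a block across libraries. Over the 45 pairs Pearson's r of log2 CPM over the 12 libraries had a median of -0.05, with 19 pairs positive and 26 negative, and with group means removed the median was -0.08. These are descriptions, since all pairs share libraries, depth and tissue mix. Among the 6 p53 targets (Mdm2, Cdkn1a, Ccng1, Gdf15, Bax and Bbc3) r ran from -0.41 for Bbc3 with Bax to 0.67 for Gdf15 with Bax, 7 pairs positive and 8 negative. Trp53 went most with Mdm2 (r = 0.57, Spearman 0.69, and 0.64 without AVF-CKD 6 and sham 6, the 2 libraries farthest out in Trp53) and with Cdkn1a (0.52, 0.57 and 0.45 in the same order). Mdm2 and Cdkn1a had an r of 0.51, which was 0.35 without AVF-CKD 5 and sham 1. The neighbours Cdkn2a and Cdkn2b had an r of 0.66 (Spearman 0.62), and of 0.83 with group means removed. Cdkn1b ran opposite to Bax (-0.57) and Mdm2 (-0.51). Without AVF-CKD 3 and AVF-CKD 5, farthest out in Cdkn1b, r with Bax was -0.19. Without AVF-CKD 5 and sham 1, farthest out in Mdm2, r with Mdm2 was -0.12. Between Cdkn1b and Cdkn1a r was -0.49, and it was -0.88 without AVF-CKD 6 and sham 2, farthest out in Cdkn1a.

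**Figure D3:**
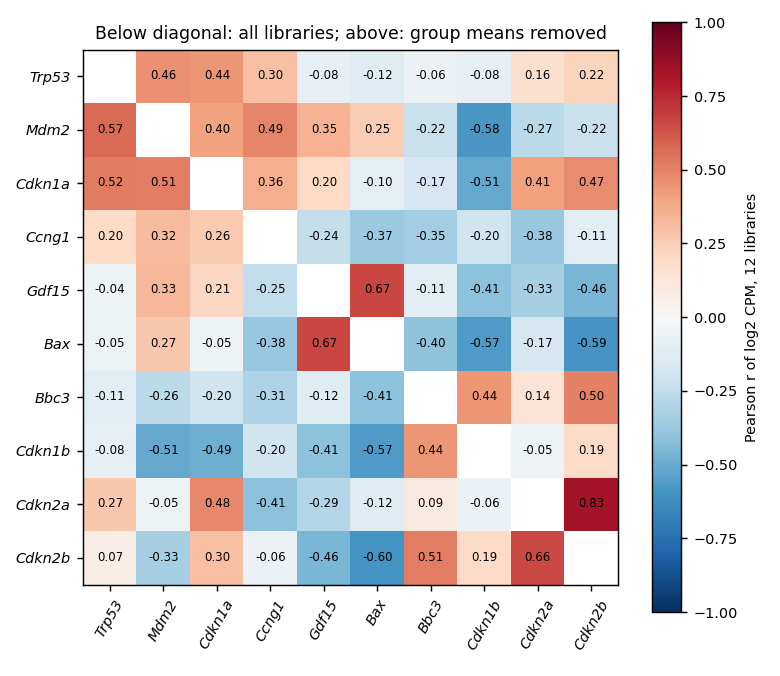
Pearson correlation of log2 CPM over the 12 libraries for each of the 45 pairs of genes, over all libraries below the diagonal and with group means removed above it. The highest values are Gdf15 with Bax (0.67) and Cdkn2a with Cdkn2b (0.66, and 0.83 with group means removed); the lowest is Cdkn2b with Bax (-0.60).

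Of 130 relations of a gene with a marker sum or Dbp, given without a test, the strongest positive ones besides those above were Mdm2 with neutrophil markers (r = 0.79, Spearman 0.85, and 0.60 without the 2 libraries farthest out in the marker sum) and Cdkn1b with fibroblast markers (0.74, 0.67 and 0.69 in the same order). Bbc3 also went with fibroblast markers (0.68), and Trp53 with cycling cell markers (0.68). Cdkn2b ran opposite to macrophage markers (-0.76), as Cdkn1b did to neutrophil markers (-0.77). All of these share libraries, depth and tissue mix. The genes most like each of the 10 in pattern were taken from 11563 genes with a mean of at least 5 CPM. For Bax these were Ttll3, Orai1 and Rrp7a (r = 0.99, 0.98 and 0.97), for Cdkn2b Mprip, Tspan18 and Unc5b (0.96, 0.94 and 0.93), and for Cdkn1b Rufy2, Plce1 and Greb1l (0.96, 0.94 and 0.94). For Mdm2 they were Rnf149, Nlrp3 and Slc16a3 (0.92, 0.91 and 0.91), for Cdkn1a Lrrn1, Igf2 and Casq2 (0.92, 0.91 and 0.91), and for Ccng1 Lrrc14b, Phtf2 and Lrrc20 (0.93, 0.91 and 0.90). Bbc3 was nearest to Mark1, Nucb1 and Prkce (0.92, 0.86 and 0.86), and Trp53 to Nlrc3, Loxl2 and Wdr90 (0.91, 0.89 and 0.88). The low genes Cdkn2a and Gdf15 were nearest to Icmt, Col18a1 and Srebf2 (0.90, 0.90 and 0.88) and to Adrm1, Gfer and Msto1 (0.89, 0.87 and 0.87).

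**Figure D4:**
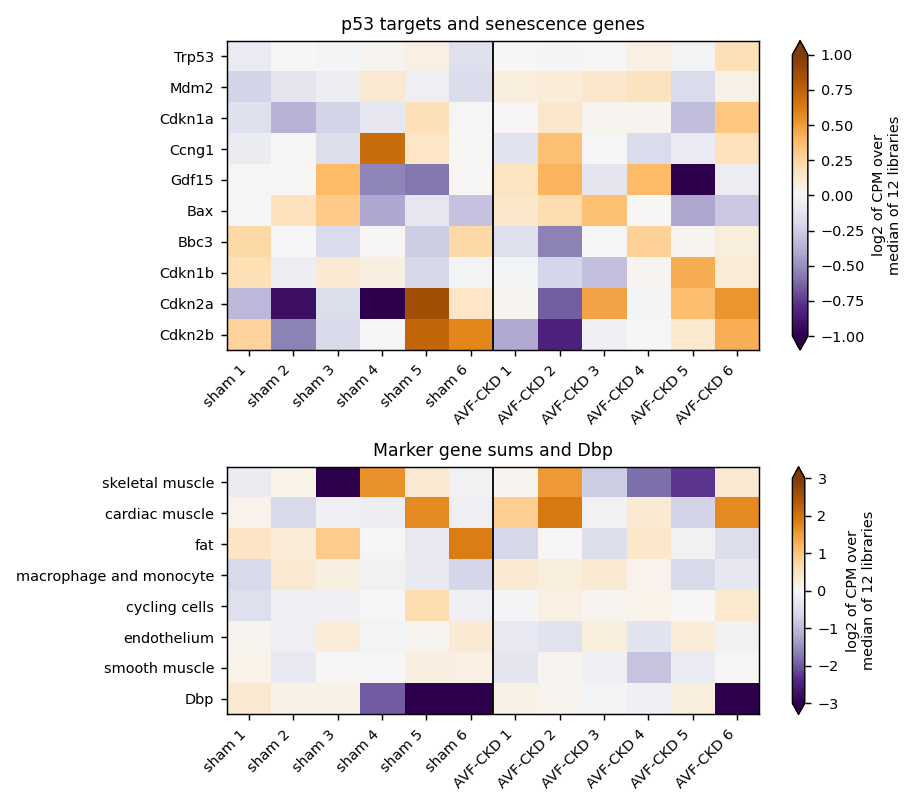
Log2 of each library's CPM over the median of the 12 libraries, for the 10 genes (top) and for summed marker genes and Dbp (bottom), with sham left and AVF-CKD right of the line; colours end at the limits of each scale. Sham 4 and AVF-CKD 2 are high in Ccng1 and in skeletal muscle markers, and AVF-CKD 6, sham 5 and AVF-CKD 2 in Cdkn1a and cardiac muscle markers.

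In 6 further lists of the wider pathway 0 genes were called (edgeR adjusted p), as over all genes. Of 30 other p53 targets 29 were tested; their median log2 fold change was 0.01, with 16 positive and 13 negative, and the 95% interval was within 2-fold for 27. The most abundant per kilobase, given with their log2 fold change ± SE as in the other lists, were Pltp, a phospholipid transfer protein gene (0.25 ± 0.14), the ribosomal protein paralogue Rps27l (-0.12 ± 0.15) and Phlda3, an inhibitor of Akt (-0.10 ± 0.12). At an unadjusted p below 0.05 there were 2 of 29, 1 in each direction, where the background was 5.26% of genes higher and 4.08% lower. Pmaip1, which encodes the BH3-only killer NOXA, was at 7.66 to 16.4 CPM in sham and 12.5 to 23.3 CPM in AVF-CKD, with means of 12.2 CPM ± 3.19 (SD, n = 6) and 18.5 CPM ± 4.19. Its log2 fold change was 0.60 ± 0.19 (edgeR adjusted p = 0.414). Ei24, an endoplasmic reticulum protein gene, was at 87.0 to 97.8 CPM in sham and 80.0 to 86.4 CPM in AVF-CKD, so the groups did not overlap (log2 fold change -0.14 ± 0.05, adjusted p = 0.456). Over all genes tested 0.638% had groups that did not overlap, and Ei24 was named after its values were seen.

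In the BCL2 family, the regulators around Bax, 15 of 16 genes were tested with a median of 0.08, and 2 had an unadjusted edgeR p below 0.05, both higher: Pmaip1, given above, and Bcl2l11. The background was 5.26% of all genes higher and 4.08% lower. Bcl2l11, the BIM gene, a further BH3-only activator, was at 21.5 to 30.7 CPM in sham and 33 to 56.4 CPM in AVF-CKD. The groups did not overlap (log2 fold change 0.44 ± 0.14, edgeR adjusted p = 0.409), as for 0.638% of all genes tested. It was named as the gene of the list with the smallest p. The most abundant members were the survival gene Mcl1 at 429 and 470 CPM (0.13 ± 0.12), Bcl2a1b (0.17 ± 0.28), which belongs to a family of near-identical copies and is uncertain, and the executioner Bak1 at 56.2 and 60.8 CPM (0.11 ± 0.10).

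Of 18 other CDK inhibitors, cyclins and Rb-E2F genes, all tested, the median was 0.05. Cdkn1c, the p57 gene and an imprinted CDK inhibitor, averaged 45.5 CPM ± 9.46 (SD, n = 6) in sham veins and 34.7 CPM ± 3.48 in fistula veins (-0.39 ± 0.12, edgeR adjusted p = 0.409). Cdkn2c, the p18Ink4c gene, was at 35.1 CPM ± 10.5 and 27.6 CPM ± 2.37 (-0.35 ± 0.15, adjusted p = 0.506), with a sham maximum of 56.3 CPM. These were the 2 genes of the list with an unadjusted edgeR p below 0.05, both lower, and the groups overlapped for both. The background was 5.26% of all genes higher and 4.08% lower. The cyclin-dependent kinase gene Cdk4 was at 181 and 170 CPM (-0.08 ± 0.09), and the CDK subunit gene Cks1b at 22.1 and 20.8 CPM (-0.08 ± 0.14).

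Of 17 regulators of p53 and damage kinases 16 were tested, with a median of 0.03 and log2 fold changes close to 0 for the acetyltransferase gene Kat5 (-0.04 ± 0.06), the deubiquitinase gene Usp7 (0.05 ± 0.06) and the ubiquitin ligase gene Rchy1 (-0.09 ± 0.05). Ep300, a coactivator of p53, had the smallest p (57.3 and 67.6 CPM, 0.24 ± 0.10, edgeR adjusted p = 0.498). Of the 28 senescence secretory and marker genes, all tested, 15 were positive and 13 negative (median 0.02), and 3 had an unadjusted p below 0.05, all higher: Tgfb1 (74.7 CPM ± 11.1 and 88.9 CPM ± 6.52, 0.25 ± 0.09, edgeR adjusted p = 0.483), the protease inhibitor gene Timp1 (233 and 303 CPM, 0.38 ± 0.16) and the cytokine gene Il1a (2.25 and 5.18 CPM, 1.21 ± 0.46). At this unadjusted edgeR p the background was 9.34% of all genes, 5.26% higher and 4.08% lower. With Timp1 the most abundant genes of this list were the chemokine gene Ccl8 (-0.51 ± 0.39) and Igfbp7 (-0.18 ± 0.14). Gdf15 is also driven by the integrated stress response, whose 14 tested genes of 15 had a median of 0.01. Its transcription factors Atf4 (144 and 141 CPM, -0.04 ± 0.09) and Atf3 (50.3 and 48.3 CPM, -0.06 ± 0.16) and the mTOR inhibitor gene Ddit4 (-0.03 ± 0.28) were near 0, while Phgdh, a serine synthesis gene, had the smallest p (25.3 and 18.1 CPM, -0.49 ± 0.13, edgeR adjusted p = 0.39). The cystine transporter gene Slc7a11 was at 22.2 CPM ± 8.70 and 37.3 CPM ± 15.8 (0.75 ± 0.32, edgeR adjusted p = 0.503).

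**Figure D5:**
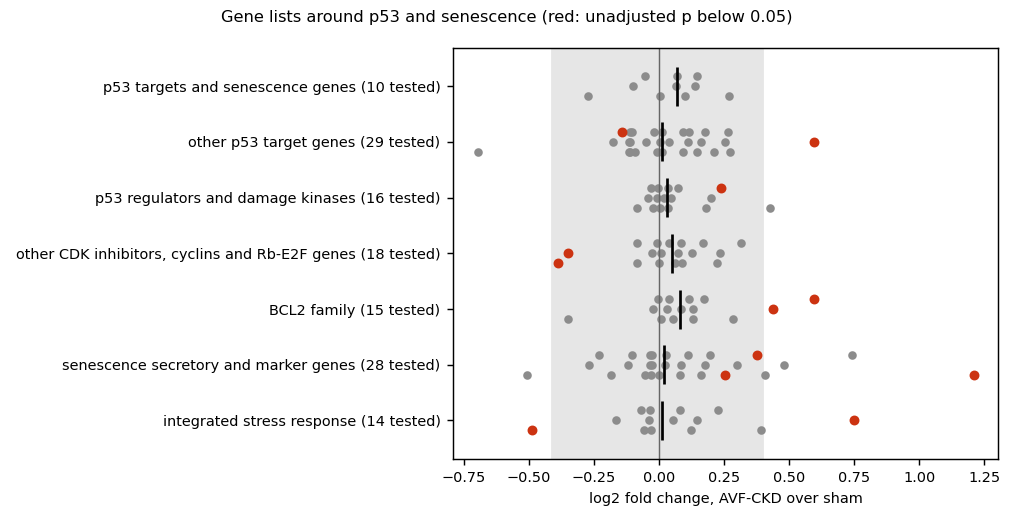
Log2 fold change of AVF-CKD over sham for each tested gene (points) of the 10 genes and the 6 further lists, with the list median (black line), unadjusted p below 0.05 in red and the 5th to 95th percentile of all genes as a grey band. List medians lie between 0.01 and 0.08; Pmaip1 stands in 2 lists at 0.60, and Il1a is farthest out at 1.21.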

How the data were processed

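The deposited table gives, per gene and library, a whole-number read count and an RPKM value, per the file headers. The submitters' processing notes name TopHat2 2.1.0, featureCounts, edgeR and the build GRCm38, without their roles; which annotation release and strand setting were used is not stated there. Counts were analysed as deposited. The deposited RPKM (reads per kilobase, scaled to depth) served only to check levels.

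Counts were filtered with filterByExpr, scaled with TMM and tested in edgeR 4.0.16 (R 4.3.3; quasi-likelihood, group as the single term), Benjamini-Hochberg over all 18965 genes, threshold 0.05. SEs are the fold change over the root of F, and intervals are at 95%. Log2 CPM used a prior count of 2. Marker sums are summed CPM. Genes were named by rule: the 10 genes, and of each further list the 3 most abundant per kilobase and the one with the smallest p; for likeness, the 3 genes with the highest r. Ei24, Cdkn2c, Il1a, Slc7a11 and Pmaip1 in the BCL2 list, Dbp and the marker relations were named after their values were seen. Members and lists were chosen with earlier results of these data known. All 66 pairs of libraries differed by more than counting noise (chi-square over its degrees of freedom at least 47.8). Alternatives were 2 scalings, 2 filters, the title number as a block, DESeq2 1.42.0, sample-weighted voom (limma 3.58.1), muscle and fat scores or Dbp as covariates, and leaving out each library; leaving out the 4 libraries of low Dbp was added after seeing the data. The fits were tested on simulated data.

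In GENCODE M21 (GRCm38), 7.68% of the exonic bases of Cdkn1a and 12.2% of those of Bax overlap another model and 0% for the other 8 genes. Of 50-base stretches of their transcripts, 8.49% in Cdkn1a, 3.95% in Trp53 and 1.32% in Mdm2 recur in transcripts of other genes, and 8.51% in Bax recur in 1 other model. The model that overlaps Cdkn1a lies on the opposite strand, and the one that overlaps Bax lies on the same strand. The kit does not mark strand, so over Cdkn1a the reads of the overlapping genes cannot be separated. Over Bax strand would not separate them. Lengths in the deposited table (869 bases for Bax, 2223 for Cdkn1a) are shorter than the GENCODE M21 exons (1576 and 3553), so levels per kilobase were computed with both; the second was added after seeing the data.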

Additional observations from a re-analysis of the deposited data

Results flagged for a closer look

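Of 20 sets of 6 libraries (10 genes, sham and AVF-CKD), 2 held a library whose gap to the next, over the whole range of the set, passed Dixon's 95% critical value; chance gives about 1 in 20. Ccng1 in sham 4 stood at 257 CPM against 175 CPM in the next sham library (ratio 0.71). Mdm2 in AVF-CKD 5 stood at 64.4 CPM against 75.6 CPM in the next fistula library (ratio 0.633).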

How the results depend on the processing

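None of the 10 genes had an adjusted p below 0.05 under any of the 22 alternatives tried per gene; the lowest was 0.36, for Cdkn1a with Dbp as a covariate. DESeq2 called 64 genes higher and 38 lower where edgeR called 0, none of them among the 10; the cause was not tested. Leaving out 1 library gave 0 to 1 genes called higher (1 without AVF-CKD 3) and 0 lower, and 0 were called without the 4 libraries of low Dbp, an alternative chosen after seeing the data. Same-numbered libraries of the groups mostly did not deviate together (r from -0.109 to 0.277), though sham 3 and AVF-CKD 3 were each the best match of the other. The title numbers were not taken as pairs. With the number as a replicate block 0 genes were called, and the SEs were 0.195 for Cdkn2a and 0.132 for Cdkn2b, against 0.31 and 0.239 without it.

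The sign of Cdkn1b changed with upper quartile scaling (-0.001), no filter (-0.003), the block (-0.014), voom (-0.046), muscle and fat scores (-0.012), Dbp (-0.017) and without the libraries of low Dbp (-0.079). Without those libraries the sign also changed for Bax (-0.078), Ccng1 (0.079) and Gdf15 (-0.102). It changed for Bax with Dbp as a covariate (-0.016) and for Bbc3 with muscle and fat scores (0.024). Leaving out 1 library moved the log2 fold change between -0.098 and 0.061 for Cdkn1b, -0.123 and 0.029 for Bbc3, -0.007 and 0.144 for Bax, -0.175 and 0.046 for Ccng1, 0.007 and 0.248 for Gdf15, 0.033 and 0.081 for Trp53, 0.112 and 0.183 for Mdm2, 0.084 and 0.211 for Cdkn1a, 0.138 and 0.563 for Cdkn2a and -0.397 and -0.141 for Cdkn2b. Unadjusted p below 0.05 was reached by Cdkn1a with Dbp as a covariate (edgeR adjusted p = 0.36) and by Mdm2 without AVF-CKD 5, without sham 4 and with voom, with adjusted p of 0.384 (edgeR), 0.519 (edgeR) and 0.383 (limma). The deposited RPKM gave lower levels for all 10 genes, such as 70.2 for Bax, 36.6 for Cdkn1a, 12.3 for Mdm2 and 10.3 for Trp53. GENCODE exonic lengths, chosen after seeing the data, lowered Bax to 45.2 and Cdkn1a to 26.7 CPM per kilobase. Counts of 47 to 201 per library limit the precision for Cdkn2a and Gdf15.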
